A study of Mus musculus with 2 samples.

Results

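Haematopoietic stem cells (HSCs) of adult mouse bone marrow were compared with HSCs of fetal liver across all genes of the deposited transcript table. The values of the transcripts of each Ensembl gene were summed, and protein-coding and long non-coding RNA (lncRNA) genes at 5 FPKM or more in either column were kept. FPKM is a count of sequenced fragments corrected for transcript length and for the size of the library, so that levels of different genes can be set side by side. This gave 9256 of 28013 genes in the table, 9110 of them protein-coding and 146 lncRNA genes.

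The study examined gene expression in fetal and adult HSCs beside the spatial organisation of their genomes. The adult group is 2 samples, replicates 1 and 2, of HSCs from B6129SF1 bone marrow at an age of 6 to 8 weeks. The fetal cells came from liver at embryonic day 14.5, per the labels' protocol, and the labels used here name no strain for them. No treatment or engineered allele is named for either group, and neither the sort markers nor the number of animals per library are stated there. The table holds 1 value per transcript under each of the headers FL (fetal liver) and BM (bone marrow), read here as the authors' mean over libraries. Replicate values were not analysed here, so the spread between libraries is unknown, no test was possible, and the words higher and lower say only how the 2 columns stand to each other.

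The direction of every difference rests on the headers of the transcript table. A second deposited table, with 1 value per gene, carries under its header BM the values that stand under FL in the transcript table, so the headers of the 2 tables contradict each other. The fetal assignment was checked on genes of the fetal stage. Lin28b, which encodes the RNA-binding protein of the fetal blood programme, was at 8.51 FPKM under FL and at 0.304 FPKM under BM. Hbb-y, the embryonic beta-type globin gene, was at 24.4 FPKM under FL and at 0.0813 FPKM under BM. Both stood where the transcript table's own headers put them, and those headers were followed. The column of the gene table that repeats the fetal libraries was used to check each sum: 8461 of 9195 fetal sums (92.0%) lay within 1.5-fold of it, 596 were lower and 138 were higher. It comes from the same libraries and is no replication, and the adult value has no such check. Genes that failed it are called unchecked where they are named.

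Fetal liver HSCs divide often and expand the stem cell pool, whereas most adult marrow HSCs rest and divide rarely. At this stage the liver is also the main site of red cell formation and holds macrophages, hepatocyte precursors and developing granulocytes. Known markers of adult HSCs include platelet-lineage genes and the surface antigen gene Ly6a, and known fetal regulators include Lin28b, Hmga2 and the genes of the insulin-like growth factor 2 mRNA-binding proteins.

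Most genes differed little. The relative log2 ratio of a gene is log2 of the adult over the fetal FPKM, each with 0.1 added, minus the median of that value over genes that reach 1 FPKM on both sides. It understates differences of genes near 0. Its quartiles over the 9256 genes were -0.44 and 0.41 and its median was -0.03. In all, 7843 genes (84.7%) lay within 2-fold. The adult column was at least 2-fold higher for 833 genes (9.00%) and at least 2-fold lower for 580 genes (6.27%). At 4-fold the counts were 209 higher (2.26%) and 178 lower (1.92%), and at 10-fold 59 higher (0.637%) and 95 lower (1.03%). More genes were therefore higher at 2-fold, and more were lower among the strongest differences. A gene kept through 1 column alone had to be lower in the other. Of the 7951 genes that reached 5 FPKM on both sides, 350 (4.40%) were higher and 320 (4.02%) lower at 2-fold, so the excess of higher genes came mostly from genes under 5 FPKM in the fetal column.

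The genes 2-fold higher took 1.42% of these genes' summed FPKM in the fetal column and 5.18% in the adult column. The genes 2-fold lower took 5.82% in the fetal and 2.36% in the adult column. Among 997 genes at 100 FPKM or more in either column, 40 were higher, 82 lower and 875 within 2-fold. Just inside the limit of 5 FPKM lay Gm17035, listed at 0 under FL and at 5.0007 FPKM under BM, and just outside it lay Myo9a, an unconventional myosin gene, at 3.01 FPKM under FL and 4.9974 FPKM under BM.

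**Figure D1:**
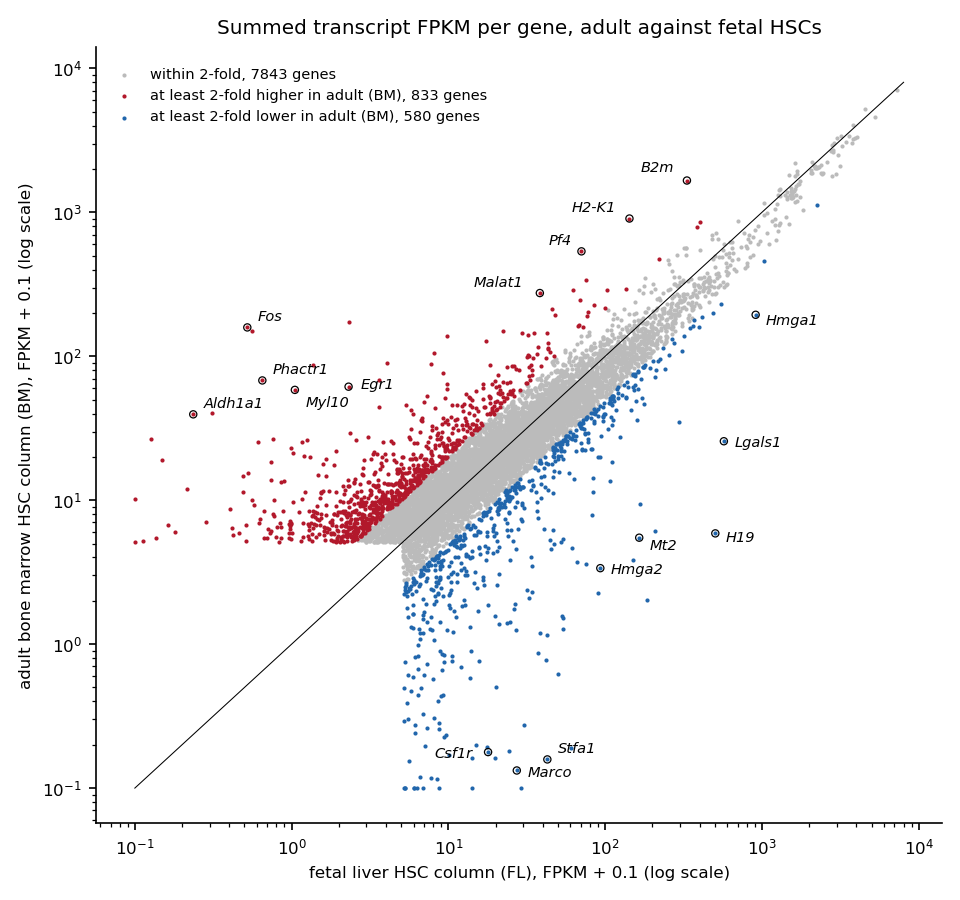
Summed FPKM of each of the 9256 genes in the fetal (x axis) and adult (y axis) column, both with 0.1 added and on log scales; red points are the 833 genes at least 2-fold higher and blue points the 580 genes at least 2-fold lower in the adult column, and the line marks equal values. Fos and Aldh1a1 lie far above the line, Marco and Stfa1 far below it, and B2m is the red point at the highest level.

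Immediate early genes are those whose transcripts appear within minutes of a stimulus, and 2 of them, Fos and Fosb, had the highest ratios among genes with a checked fetal value. Fos was at 0.422 FPKM in the fetal and at 158 FPKM in the adult column, a relative log2 ratio of 8.24. Its relative Fosb, which also encodes a subunit of the AP-1 transcription factor, was at 0.0267 against 26.5 FPKM (7.70). Egr1, a zinc finger factor known to hold adult HSCs in the niche, was at 2.21 against 61.4 FPKM (4.72). Dusp1, a phosphatase that switches off MAP kinases, was at 8.04 against 105 FPKM (3.68). Zfp36, which encodes a protein that speeds mRNA decay, was at 9.75 against 63.8 FPKM (2.69). Ier2 (32.2 against 141 FPKM) and Klf2 (1.45 against 7.39 FPKM) were higher as well. Of 29 immediate early genes listed, 25 were found by symbol and 14 reached 5 FPKM in either column. Of these 14, 8 were higher and 0 lower, and the median ratio was 1.59. Only 8 of the 14 reached 5 FPKM on both sides, 4 of them higher. Sik1, a salt-inducible kinase gene, and Csrnp1 stayed within 2-fold, at 7.63 against 9.72 FPKM and 9.16 against 11.6 FPKM. The inducible chaperone genes were higher too: Hspa1b was at 1.06 against 25.5 FPKM (4.44), and the unchecked Hspa1a, a near-identical neighbour, at 0.897 against 23.1 FPKM (4.53). Abundant chaperone genes of the mitochondrion were lower. Hspd1, the mitochondrial chaperonin gene, was at 416 against 188 FPKM (-1.15), and Hspe1, its partner, at 490 against 201 FPKM (-1.30). Of the 23 chaperone genes kept, 3 were higher and 3 lower.

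Genes outside these lists were also among the highest checked ratios. Aldh1a1, an aldehyde dehydrogenase that makes retinoic acid and marks stem cells in dye assays, was at 0.136 against 39.4 FPKM (7.38). Phactr1, an actin and phosphatase regulator, was at 0.55 against 67.8 FPKM (6.69). Crygn, a crystallin gene, was listed at 0 in the fetal column and at 10.1 FPKM in the adult column. Sdsl, a serine dehydratase-like enzyme gene, was at 1.27 against 86.3 FPKM (5.97), and Myl10, a myosin light chain gene, at 0.949 against 58.3 FPKM (5.79). All of these were under 2 FPKM in the fetal column. Ltbp3, which encodes a protein that binds latent TGF-beta, was at 0.509 against 25.3 FPKM (5.37). Alcam, a cell adhesion molecule of HSCs, was at 0.429 against 15.3 FPKM (4.86). Cpne2, a calcium-dependent membrane-binding protein gene, was at 3.95 against 89.2 FPKM (4.45), and Ndrg1, a stress-responsive gene, at 3.53 against 68.1 FPKM (4.22). Sult1a1, a sulfotransferase, was at 0.389 against 14.7 FPKM (4.91), and Gstt1, a glutathione transferase, at 0.644 against 13.8 FPKM (4.21). Abcb1b, a drug efflux pump known from stem cells, was at 0.569 against 8.35 FPKM (3.65). Of the 37 antioxidant and detoxification genes kept, 7 were lower and 5 higher, and their median was -0.42. Tnfsf13 and its antisense gene Tnfsf13os were at 0.183 against 6.96 FPKM and at 0.0623 against 6.59 FPKM. The labels used here do not say whether counting used the strand, so reads of the pair may not be told apart.

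**Figure D2:**
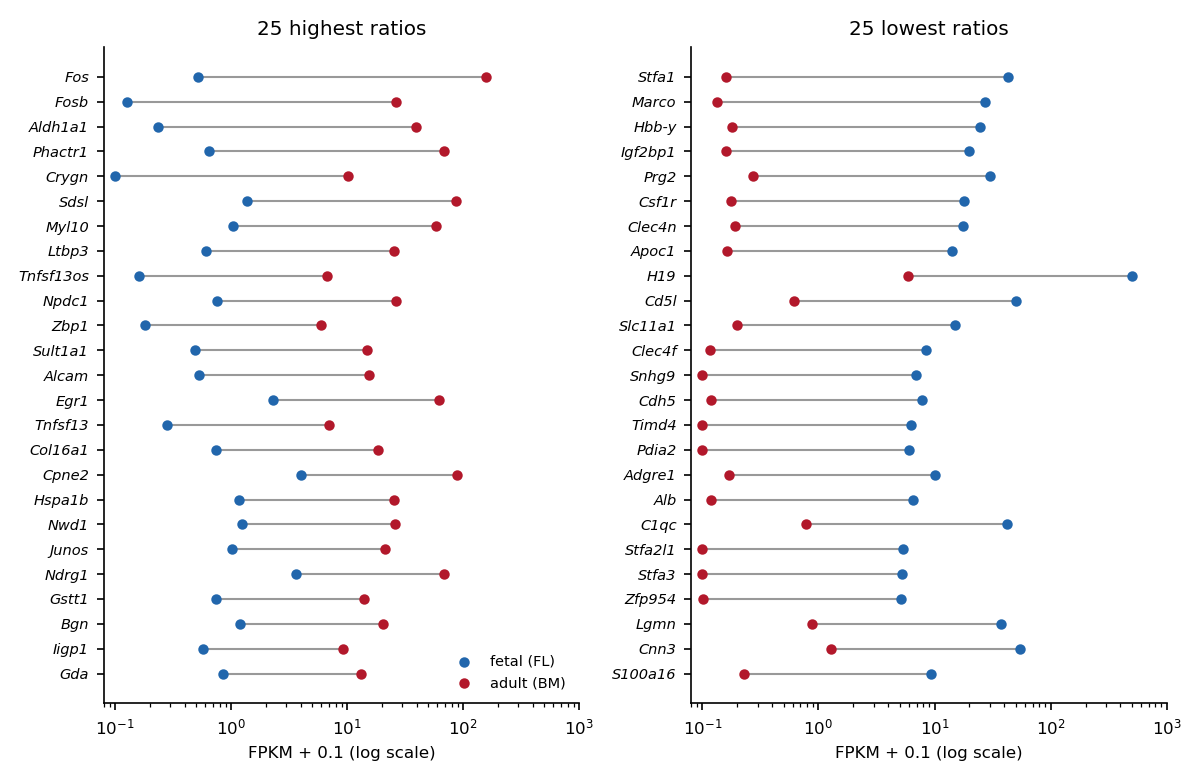
FPKM with 0.1 added (log scale) in the fetal column (blue) and the adult column (red) of the 25 genes with the highest (left) and the 25 with the lowest (right) relative ratio among named genes with a checked fetal value. Fos, at 0.422 against 158 FPKM, heads the left panel and Stfa1, at 42.7 against 0.0582 FPKM, the right panel.

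Genes of antigen presentation were higher in the adult column as a group and included its largest and second largest gains in level. Class I molecules show peptides from inside the cell and class II molecules peptides from taken-up protein. B2m, the shared light chain of class I molecules, was at 332 FPKM in the fetal and 1662 FPKM in the adult column (2.31), the largest gain in FPKM of any of the 9256 genes. H2-K1, a classical heavy chain gene, was at 143 against 905 FPKM (2.65), the second largest gain. Nlrc5, the transactivator of class I genes, was at 0.788 against 13.6 FPKM (3.93). The peptide transporter genes Tap1 and Tap2 were at 20.6 against 73.4 FPKM (1.82) and at 22.2 against 66.4 FPKM (1.56), and the immunoproteasome gene Psmb8 at 99 against 216 FPKM (1.11). The general chaperones of the same pathway did not follow, with Calr at 427 against 353 FPKM (-0.28) and Canx at 247 against 231 FPKM (-0.11). Of 24 class I and peptide loading genes listed, 23 were kept, of which 15 were higher and 0 lower; their median was 1.48. H2-Q4 was at 9.71 against 138 FPKM (3.81), whereas H2-Q6, H2-Q7 and H2-D1 were unchecked, and the near-identical H2 genes could have shared reads.

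Class II genes were higher too, from low fetal levels. H2-DMa, which helps load peptides, was at 6.91 against 48.2 FPKM (2.77). H2-Ab1 and H2-Aa, the 2 chains of the I-A molecule, were at 3.68 against 17.3 FPKM (2.19) and at 3.12 against 11 FPKM (1.77). Cd74, the invariant chain gene, was at 8.88 against 27.2 FPKM (1.59). Rfx5, a factor of the class II promoter complex, was at 9.44 against 22.6 FPKM (1.24). Of the 15 genes listed, 11 were kept and 9 were higher. Only 4 of the 11 reached 5 FPKM on both sides, 3 of them higher. The exception in direction was Ctss, the cathepsin that trims the invariant chain and is also abundant in macrophages, at 15.8 against 4.10 FPKM (-1.93).

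Interferon-response genes shared this direction in part. Iigp1, an interferon-inducible GTPase gene, was at 0.476 against 9.22 FPKM (4.0), and Ifi44 at 1.12 against 11.3 FPKM (3.21). Zbp1, a sensor of nucleic acids, was at 0.0802 against 5.88 FPKM (5.04). Gbp2 and Gbp3, of the guanylate-binding proteins, were at 3.60 against 18.1 FPKM (2.29) and at 2.52 against 10.3 FPKM (1.98). Ifitm3, a membrane protein that blocks virus entry, was already high in the fetal column, at 220 against 471 FPKM (1.08). None of the 4 receptor genes was 2-fold higher, and 1 was 2-fold lower: Ifngr2 was at 11.8 against 5.57 FPKM (-1.08), Ifngr1 at 66.8 against 45.4 FPKM (-0.57), Ifnar2 at 46.0 against 40.1 FPKM (-0.21) and Ifnar1 at 18.1 against 20.6 FPKM (0.17). Isg15 and Bst2, 2 further interferon targets, were level at 6.20 against 5.97 FPKM and at 82.2 against 81.9 FPKM. Of 57 genes listed, 42 were kept, of which 20 were higher and 1 lower. Among the 30 at 5 FPKM or more on both sides, 10 were higher and 1 lower. Of the 59 genes at least 10-fold higher, 12 (20.3%) were in the immediate early, chaperone, interferon, NF-kappa-B or antigen presentation lists, beside 0 of the 95 at least 10-fold lower and 134 of all 9256 genes (1.45%). Of the 12, only Dusp1 and H2-Q4 reached 5 FPKM in the fetal column. The others were kept through the adult column alone, which set their direction, and Hspa1a, H2-Q6, H2-Q7 and Tgtp1 were unchecked.

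Promoter sequences are shown for 3 of these genes because their windows hold motifs that occurred at a higher share among genes at least 4-fold higher than among those 4-fold lower. Each line gives the bases just before the RefSeq transcription start, 5′ to 3′ on the gene's strand, on build GRCm38.p6, and capitals mark the interferon-stimulated response element (GAAA, any 2 bases, then GAAA again) or the NF-kappa-B site (GGG, then AATT, ACTT or GCTT, then TCC, or GGG, GATT and CCC), on either strand. B2m lies on chromosome 2 (chr2:122147527-122147686, plus strand) with both motifs, starting 139 and 126 bases before the start site. Gbp2 lies on chromosome 3 (chr3:142620503-142620662, plus strand) with the first motif 59 bases before it. H2-K1 lies on chromosome 17 (chr17:34000334-34000493, minus strand) with the NF-kappa-B site 125 bases before it.
B2m: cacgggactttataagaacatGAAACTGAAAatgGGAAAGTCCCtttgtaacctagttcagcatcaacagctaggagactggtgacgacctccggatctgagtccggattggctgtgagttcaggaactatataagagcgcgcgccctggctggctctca
Gbp2: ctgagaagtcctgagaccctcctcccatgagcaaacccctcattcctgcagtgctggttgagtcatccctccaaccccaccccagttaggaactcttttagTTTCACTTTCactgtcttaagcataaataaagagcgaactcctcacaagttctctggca
H2-K1: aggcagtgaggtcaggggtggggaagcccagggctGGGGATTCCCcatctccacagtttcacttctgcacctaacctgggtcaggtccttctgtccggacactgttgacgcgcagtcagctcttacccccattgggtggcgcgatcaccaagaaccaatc

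Over windows of 300 bases (250 before to 50 after the start), the interferon motif stood in 9.86% of the 213 windows of genes at least 4-fold higher, in 2.40% of the 167 windows of genes at least 4-fold lower, in 3.14% of the 9520 windows of all genes kept and in 3.44% of all 32851 windows. The 19 higher genes that hold it include Slfn5, Slfn8, H2-T23, Tgtp2 and the unchecked Tgtp1 beside Gstt1 and Itga2b. The NF-kappa-B letters stood in 3.29%, 0, 0.693% and 0.490% of the same windows, and 4 of the 6 higher genes with them were class I heavy chain genes (H2-D1, H2-K1, H2-Q6 and H2-Q7), whose copies share sequence. Windows were found for 7438 of the 9256 genes, some genes have several, and a match describes letters and is not shown to be a bound site. The AP-1 letters (TGACTCA or TGAGTCA) stood in 6.57% of the higher, 5.39% of the lower and 3.39% of all kept windows. The TATA box letters (TATAAA) stood in 10.8% of the higher, 11.4% of the lower, 6.51% of all kept and 13.6% of all windows. For both of these motifs the shares on the 2 sides were closer to each other than to that of the kept windows. Shares of higher, lower and all kept windows follow for the other motifs searched, apart from the GATA and E2F letters below. The class II X2 box (TGACGCA) stood in 1.88%, 2.99% and 3.97%, and the cAMP response element (TGACGTCA) in 0.939%, 1.20% and 3.01%. The E-box (CACGTG) stood in 7.04%, 8.38% and 10.5%, the CCAAT box in 37.1%, 41.3% and 38.4%, and the serum response element in 0.469%, 0 and 0.168%.

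Platelet-lineage genes were higher in the adult column, and none of those kept was lower. Pf4, a chemokine of platelet granules, was at 70.5 FPKM in the fetal and 535 FPKM in the adult column (2.91). Itga2b and Itgb3, the 2 chains of the fibrinogen receptor, were at 22.2 against 149 FPKM (2.73) and at 4.30 against 24.8 FPKM (2.49). Gp1bb, part of the von Willebrand factor receptor, was at 2.79 against 19 FPKM (2.71). Cavin2, a caveola protein gene also abundant in platelets, was at 3.51 against 44.5 FPKM (3.61). Plek, a substrate of protein kinase C, was at 9.72 against 59.0 FPKM (2.58), and Rap1b, a GTPase of platelet activation, at 103 against 286 FPKM (1.46). Gfi1b (90.4 against 106 FPKM) and Rasgrp2 (142 against 164 FPKM) differed little. Of 40 genes listed, 31 were kept, of which 18 were higher and 0 lower; their median was 1.40. Of the 23 that reached 5 FPKM on both sides, 11 (47.8%) were higher, beside 4.40% of all such genes. In these bulk columns, fewer cells of a type and less RNA per cell cannot be told apart, here and for every lineage below.

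Regulators and surface molecules of HSCs showed a mixed picture. Ly6a, the Sca-1 antigen gene, was at 6.62 against 36.0 FPKM (2.41), and Muc13, a transmembrane mucin gene, at 17.3 against 127 FPKM (2.86). Meis1, a Hox cofactor, was at 66.8 against 162 FPKM (1.26). Angpt1, a ligand of the Tek receptor, was at 29.2 against 144 FPKM (2.29). Pdcd4, an inhibitor of translation initiation, was at 74.9 against 338 FPKM (2.16). Zbtb20 and Sox6, 2 transcription factor genes, were at 0.604 against 6.17 FPKM (3.14) and at 1.36 against 14.9 FPKM (3.35). Kit, the receptor of stem cell factor, was at 112 against 181 FPKM (0.67), and Cd34 at 116 against 80.3 FPKM (-0.54). Cd48, a surface antigen that is absent from the purest HSC gates, was at 25.1 against 6.09 FPKM (-2.04). Of the 33 HSC factor genes kept, 8 were higher and 2 lower; the 2 lower, Gfi1 and Ikzf1, were both unchecked, and so was Hoxa10 among the higher. Of the 35 surface genes kept, 8 were higher and Cd48 alone was lower. The higher Itga4 and Ptprc were unchecked. With the fetal value of the gene table Hoxa10, Itga4 and Ptprc would be at -0.37, -1.30 and -1.03.

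Genes that restrain the cell cycle were more often higher than lower. Cdkn2c, an inhibitor of the kinases CDK4 and CDK6, was at 2.24 against 12.4 FPKM (2.41). Rbl2, the pocket protein p130 of resting cells, was at 9.82 against 27.1 FPKM (1.44). Pik3ip1, which inhibits PI3 kinase, was at 21.3 against 58.2 FPKM (1.43), and Trp53inp1 at 2.01 against 5.58 FPKM (1.42). Cdkn1c, the inhibitor p57 known from resting HSCs, had the lowest ratio of the list, at 34.3 against 19.4 FPKM (-0.83). Of the 30 genes kept, 9 were higher and 0 lower. Among the 26 at 5 FPKM or more on both sides, 6 were higher and 0 lower. Bcl2, the survival gene, was at 3.27 against 15.2 FPKM (2.17), while the pro-death gene Bax was at 85.7 against 39.9 FPKM (-1.11).

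lncRNA genes were higher more often than protein-coding genes. Of 146 kept, 42 (28.8%) were higher and 12 (8.22%) lower, beside 8.68% and 6.23% of protein-coding genes. The 2 classes were not matched for level. When all genes kept were cut into 5 equal bins by the geometric mean of both columns, the lowest bin had 450 of 1852 higher and 234 lower. The part of level in the lncRNA share was not tested. Malat1, an abundant nuclear RNA, was at 38.2 FPKM in the fetal and 275 FPKM in the adult column (2.83). Hotairm1, transcribed from the Hoxa cluster, was at 1.06 against 10.2 FPKM (3.14), and Firre, a nuclear RNA of the X chromosome, at 12.1 against 45.3 FPKM (1.89). Junos, antisense to Jun, was at 0.928 against 21 FPKM (4.35). Among the lower lncRNA genes, H19, the imprinted fetal RNA, was at 504 against 5.78 FPKM (-6.43), a larger loss in FPKM than that of any other lncRNA gene. Mir17hg, the host of a microRNA cluster that promotes growth, was at 6.12 against 2.61 FPKM (-1.21). Snhg9, a host of small nucleolar RNA, was at 6.76 FPKM in the fetal column and listed at 0 in the adult column. Xist, expressed from the inactive X chromosome of females, was at 23.9 against 54.4 FPKM, and the Y-linked Ddx3y was at 5.13 against 7.62 FPKM, so both columns held RNA of both sexes.

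Genes of fetal growth stood at the other end. Of 22 listed, 15 were kept, of which 12 were lower and 0 higher, with a median of -4.43. Lin28b and Hbb-y are among them and had served to check which column is fetal, so their direction adds nothing here. Among the 8 at 5 FPKM or more on both sides, 5 were lower and 0 higher. Beside the genes named above, Igf2bp1 was at 19.6 against 0.0611 FPKM (-6.95) and Igf2bp2 at 40.4 against 6.19 FPKM (-2.70), so the family differed in size but not in direction. Hmga1, an architectural chromatin protein gene, carried the largest loss in FPKM of this list, at 911 against 194 FPKM (-2.24), and its relative Hmga2 was at 93.0 against 3.27 FPKM (-4.80). Mycn (111 against 85.3 FPKM) and Plag1 (12.3 against 16 FPKM) stayed within 2-fold. Lgals1, the galectin-1 gene, was at 571 FPKM in the fetal and 25.6 FPKM in the adult column (-4.49), and Cnn3, an actin-binding calponin gene, at 54.0 against 1.18 FPKM (-5.41). Cited4, a transcriptional coactivator gene, was at 66.2 against 3.64 FPKM (-4.16). Id1, Id2 and Id3, which encode inhibitors of E proteins, were lower: Id3 was at 13.6 against 0.485 FPKM (-4.56), Id1 at 32.6 against 1.99 FPKM (-3.98) and Id2 at 10.1 against 1.69 FPKM (-2.52). All of these Id genes were kept through the fetal column alone, so their direction was set by the limit. Smad6, an inhibitor of BMP signalling, was at 10.8 against 4.80 FPKM (-1.16), whereas Smad1, a BMP effector, was at 8.06 against 16.7 FPKM (1.03).

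Among the genes lower by the widest margin, transcripts of differentiated blood, liver, vessel and stroma cells were frequent: 40 of the 95 genes at least 10-fold lower (42.1%) belonged to lists of such cells other than megakaryocytes, against 2 of the 59 at least 10-fold higher (3.39%). These lists held 139 of all 9256 genes. They were written with earlier results of these data known. Genes of the 40 under 5 FPKM in the adult column, such as Marco and Csf1r, were kept through the fetal column alone, which set their direction. The 40 include Hbb-y, used to check the columns, the unchecked alpha and adult beta globin genes, and Dlk1. Counts on both sides follow for the macrophage, neutrophil and monocyte, hepatocyte, endothelial and red cell lists. Of the 21 macrophage genes kept, 13 were at least 10-fold lower. Marco, a scavenger receptor, was at 27.2 FPKM in the fetal and 0.0325 FPKM in the adult column (-7.70). Csf1r, the receptor on which macrophages depend, was at 17.8 against 0.0779 FPKM (-6.66). Cd5l, a secreted product of tissue macrophages, was at 50.1 against 0.516 FPKM (-6.36), and Timd4, a receptor for dying cells, at 6.18 FPKM in the fetal column and listed at 0 in the adult column. Adgre1, which encodes the F4/80 antigen, was at 10.02 against 0.0709 FPKM (-5.90). Slc11a1, a metal transporter of phagosomes, was at 14.9 against 0.0985 FPKM (-6.25), and Clec4f, a lectin of liver macrophages, at 8.35 against 0.0155 FPKM (-6.20). Of the 33 macrophage genes listed, 21 were kept, of which 18 were lower and 0 higher. Only 6 of the 21 reached 5 FPKM on both sides, 3 of them lower and 0 higher, and the others were kept through the fetal column alone. Those kept summed to 1180 FPKM in the fetal and 532 FPKM in the adult column, and Apoe, the most abundant of them, was at 532 against 360 FPKM.

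Granulocyte genes formed the next group. Stfa1, a stefin A protease inhibitor of neutrophils, had the lowest ratio among named genes with a checked fetal value, at 42.7 against 0.0582 FPKM (-8.09). Prg2, the major basic protein of eosinophils, was at 30.0 against 0.174 FPKM (-6.79), and Ear2, an eosinophil ribonuclease, at 6.03 against 0.175 FPKM (-4.49). Mpo, the myeloperoxidase gene of granulocyte precursors, was at 167 against 9.27 FPKM (-4.17). Fcnb, a ficolin of granulocytes, was at 8.55 against 0.157 FPKM (-5.09). Lyz2, the lysozyme gene that many myeloid cells share, did not follow, at 92.2 against 111 FPKM (0.25), nor did Alox5ap, at 111 against 144 FPKM (0.36). Srgn, a proteoglycan core of granules and platelets, was at 401 against 855 FPKM (1.08). The 27 neutrophil and monocyte genes kept summed to 1471 and 1408 FPKM. Of these, 16 were lower and 3 higher, of which Anxa1 and Nkg7 were unchecked. Anxa1 would be at -0.95 with the gene table's fetal value. Among the 14 at 5 FPKM or more on both sides, 5 were lower and 1 higher. In the mast cell, basophil and eosinophil list, 4 of 5 genes were lower. All 4 were kept through the fetal column alone, so their direction was set by the limit.

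Liver genes were few but lower. Alb, the albumin gene, was at 6.46 against 0.019 FPKM (-5.80), and Apoc1, an apolipoprotein gene, at 14.1 against 0.062 FPKM (-6.47). Mt1 and Mt2, the metallothionein genes, were at 295 against 35.0 FPKM (-3.08) and at 165 against 5.39 FPKM (-4.92). The keratin gene Krt18 was in the opposite direction, at 14.0 against 44.6 FPKM (1.66). Of 39 hepatocyte genes listed, 9 were kept, 7 lower and 1 higher, with sums of 613 and 100.36 FPKM. Most of the fetal sum came from Mt1, Mt2 and Dlk1 (89.7 FPKM), and Dlk1 is also in the fetal growth list. Alb, Afp (6.44 FPKM) and Apoa2 (5.07 FPKM) lay little above the limit in the fetal column. Only 4 of the 9 reached 5 FPKM on both sides, 2 lower and 1 higher. Endothelial genes split. Cdh5, the VE-cadherin gene, was at 7.67 against 0.0183 FPKM (-6.05) and Plvap at 7.21 against 0.634 FPKM (-3.33), while Pecam1 (16.9 against 19.3 FPKM), Esam (41.3 against 48.4 FPKM) and Tie1 (45.6 against 57.6 FPKM), which HSCs also express, stayed within 2-fold. Of 18 kept, 5 were lower and 0 higher. Among the 14 endothelial genes at 5 FPKM or more on both sides, 1 was lower. The part of other cells in the fetal column in any of these differences was not tested.

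Red cell genes were lower over several steps of the programme. Klf1, the master factor of erythroid genes, was at 82.8 against 7.82 FPKM (-3.40). Epor, the erythropoietin receptor, was at 46.7 against 16 FPKM (-1.55). Pklr, the pyruvate kinase of red cells and liver, was at 75.4 against 3.53 FPKM (-4.39), and Rhd, which encodes the Rhesus blood group protein, at 31.5 against 2.28 FPKM (-3.74). Tspo2, a transporter of erythroid membranes, was at 20.9 against 1.28 FPKM (-3.93). The alpha and adult beta globin genes were lower as well, with Hbb-bt at 207 against 6.04 FPKM, but all 4 were unchecked, and near-identical copies could have shared reads. Not every gene of the list followed: Car2, the carbonic anhydrase II gene, was at 252 against 469 FPKM (0.89), and Car1 at 16.9 against 44.2 FPKM (1.37). Of 52 genes listed, 40 were kept, of which 27 were lower and 1 higher, and those kept summed to 2743 FPKM in the fetal and 1402 FPKM in the adult column. Of the 27 that reached 5 FPKM on both sides, 14 (51.9%) were lower, beside 4.02% of all such genes.

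The promoters of Pklr (chr3:89135982-89136141, plus strand) and Rhd (chr4:134864376-134864535, plus strand) are shown because both hold the letters AGATAAG, the core bound by GATA factors, close to the start. Capitals mark it, 35 and 43 bases before the start site, from RefSeq on GRCm38.p6.
Pklr: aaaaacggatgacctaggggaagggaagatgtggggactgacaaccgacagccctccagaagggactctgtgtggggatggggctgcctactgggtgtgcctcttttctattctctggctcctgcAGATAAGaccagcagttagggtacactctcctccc
Rhd: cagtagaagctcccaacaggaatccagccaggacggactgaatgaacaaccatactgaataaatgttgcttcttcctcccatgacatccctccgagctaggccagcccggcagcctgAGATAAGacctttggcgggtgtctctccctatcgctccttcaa
These letters, searched on both strands, stood in 5.39% of the windows of genes at least 4-fold lower, in 2.35% of those at least 4-fold higher, in 1.78% of all kept windows and in 3.04% of all windows. The 9 lower genes with them were Stfa1, Stfa3, the unchecked Hbb-bs, Mpeg1, Pklr, Mylk3, Rhd, Cpox and Slc39a8, of which Hbb-bs, Pklr, Rhd and Cpox act in red cells. E2F letters (TTTCCCGC or TTTGGCGC), found in promoters of replication genes, stood in 3.15% of kept windows but in 0 of the windows of genes 4-fold higher and 1.20% of those 4-fold lower.

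Groups of housekeeping genes were shifted by less than 2-fold, and these shifts have to be read beside 2 general trends. The ratio was higher for long transcripts and lower for abundant genes. With the genes cut into 5 equal bins by longest annotated transcript, the median ratio went from -0.28 for the shortest to 0.21 for the longest, with a Spearman rho of 0.238 across genes. Over 5 bins by level (the geometric mean of both columns) it went from 0.38 for the lowest to -0.30 for the highest, with a rho of -0.295. Genes are not independent replicates, all share the same libraries, and the 5 FPKM limit acts on level, so no p is given. The part of length and level in the groups below was not tested. Median length and level are given for the mitosis, mitochondrial ribosomal, oxidative phosphorylation, proteasome, cytosolic ribosomal and zinc finger lists.

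**Figure D3:**
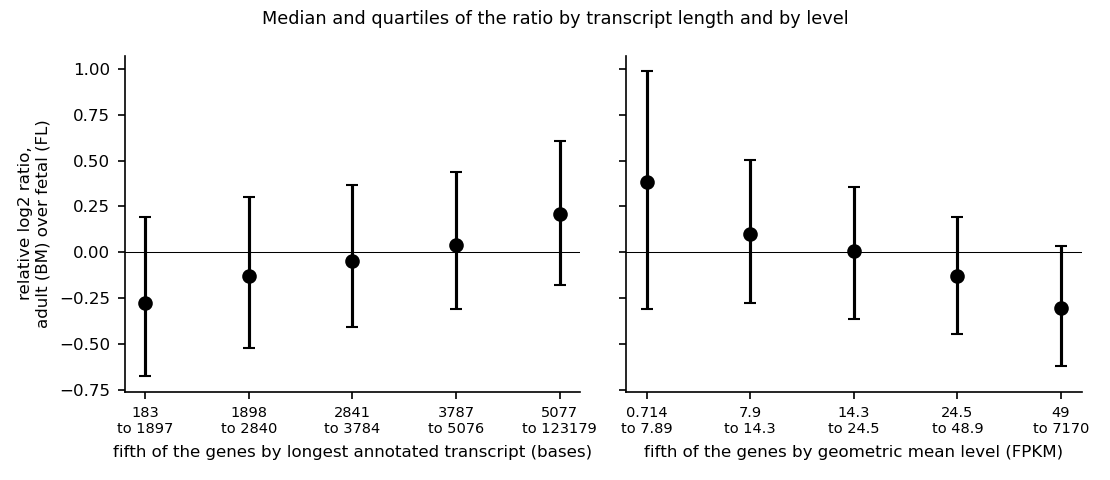
Median (point) and quartiles (bars) of the relative log2 ratio, adult over fetal, in 5 equal bins of the 9256 genes by longest annotated transcript (left, bases) and by the mean FPKM of both columns (right). The median climbs from -0.28 to 0.21 with length and goes down from 0.38 to -0.30 with level.

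Mitosis genes were the most displaced of these groups. Plk1, the kinase of mitotic entry, was at 62.9 against 14.0 FPKM (-2.18), and Aurka, a spindle pole kinase, at 58.3 against 15.4 FPKM (-1.93). Ube2c, an enzyme that marks mitotic cyclins for destruction, was at 178 against 46.6 FPKM (-1.94). Ncaph, a condensin subunit, was at 36.4 against 8.27 FPKM (-2.13). Of 63 genes kept, 27 were lower and 0 higher, with a median of -0.80, a median length of 3526 bases and a median level of 29.8 FPKM, beside 3278 bases and 18.5 FPKM for all 9256 genes. Kif20b (6.52 against 8.81 FPKM) and Smc4 (42.5 against 54.7 FPKM) had ratios above 0. In the step before, Ccne1, the cyclin of S phase entry, was at 36.9 against 7.43 FPKM (-2.31), Rrm2, which makes deoxynucleotides, at 78.2 against 26.5 FPKM (-1.57) and Cdc6, a replication licensing factor, at 34.7 against 12.7 FPKM (-1.46). Of 56 genes of G1/S and replication, 12 were lower and 0 higher, with a median of -0.63. Cdk6 (17.2 against 31.5 FPKM, 0.86) and Ccnd2 (59.3 against 100.03 FPKM, 0.74), a G1 kinase and its cyclin, lay above 0.

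Lists of biosynthesis and energy genes had medians between -0.78 and -0.16, and most of their genes stayed within 2-fold. Mthfd2, an enzyme of mitochondrial one-carbon metabolism, was at 29.4 against 9.10 FPKM (-1.69), and nucleotide synthesis genes had a median of -0.78 with 5 of 31 lower. Aminoacyl-tRNA synthetase genes had a median of -0.71, led by Cars at 27.0 against 11.2 FPKM (-1.28). Mitochondrial ribosomal protein genes had a median of -0.67 with 10 of 76 lower, at a median length of 1807 bases and level of 51.3 FPKM. Oxidative phosphorylation genes had a median of -0.60 with 7 of 88 lower, at 1216 bases and 126 FPKM. Atp5b, the catalytic subunit of ATP synthase, was at 2251 against 1127 FPKM (-1.01), the largest loss in FPKM of all genes kept. Proteasome genes had a median of -0.60 with 0 of 45 lower and 1 higher, the immune subunit Psmb8. Their median length was 1907 bases and their median level 88.9 FPKM. Cytosolic ribosomal protein genes lay closest to the middle, with a median of -0.16 and 2 of 78 lower, both unchecked, at a median length of 1100 bases and level of 1581 FPKM. Their median would be 0.0049 with the gene table's fetal values, so its sign is uncertain.

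Glucose use was uneven. Slc16a3, the lactate exporter, was at 53.6 against 5.27 FPKM (-3.33), Slc2a1, the main glucose transporter of blood cells, at 42.0 against 18.1 FPKM (-1.22), and Eno1, a glycolytic enzyme, at 399 against 159 FPKM (-1.33). Aldoc (3.80 against 9.40 FPKM, 1.27), an aldolase, and Pfkfb2 (2.50 against 6.31 FPKM, 1.29), a regulator of glycolysis, were higher. Of 24 genes kept, 4 were lower and 2 higher. Cpt1a, which admits fatty acids to mitochondria, was at 14.0 against 49.8 FPKM (1.81), while Fabp4 and Scd2, of fatty acid binding and desaturation, were at 6.27 against 0.345 FPKM (-3.85) and at 169 against 69.4 FPKM (-1.29). Cholesterol synthesis genes had a median of -0.04 and lysosome and autophagy genes one of -0.06, next to -0.03 for all genes.

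**Figure D4:**
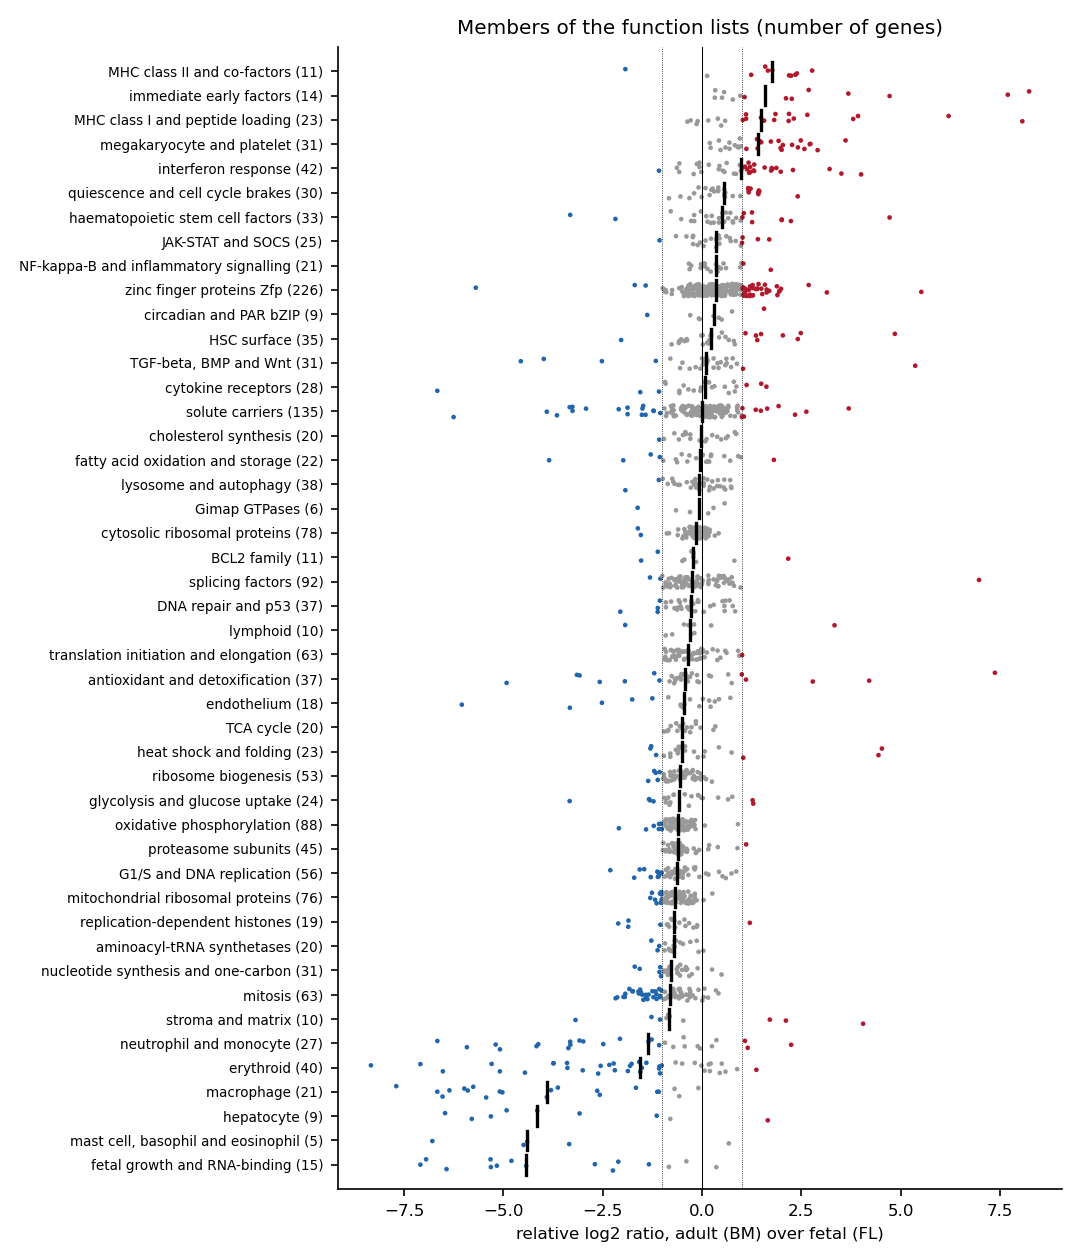
Relative log2 ratio (x axis) of each gene kept in 46 function lists (rows, number of genes in brackets), with red points at least 2-fold higher and blue points at least 2-fold lower in the adult column and black bars at the list medians. Antigen presentation, immediate early, platelet and interferon lists lie to the right, with medians from 0.99 to 1.77, and macrophage, hepatocyte, mast cell and fetal growth lists to the left, with medians from -3.91 to -4.43.

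Grouping genes by symbol stem, without any function list, gave 279 families of 5 or more genes. Family medians and counts include genes kept through 1 column alone, whose direction was set by the limit. Genes at 5 FPKM or more on both sides were not counted per family. The stem Igf, which joins growth factor genes and their mRNA-binding proteins, had the lowest median, at -2.87 with 6 of 7 lower, followed by the lectin stem Clec at -2.20. Igf1, Igf2, Igf2bp1 and Igf2bp3 were kept through the fetal column alone. The same holds for the lower Clec4e, Clec4f and Clec4n, whereas Clec2d was higher (2.84) and Clec16a lay above 0 (0.33). Coa, of cytochrome oxidase assembly (-0.83), Cdca, of cell division (-0.82), and Mrpl, of the large mitochondrial ribosomal subunit (-0.71), were also among the 10 lowest. All 6 Gemin genes, which build splicing particles, lay below 0, with 0 of them 2-fold lower. The interferon-inducible stem Ifi had the highest median, at 1.53 with 5 of 6 higher, or 1.70 with the gene table's fetal values. Cyp, of the cytochrome P450 enzymes (0.98), and Klf, of Krüppel-like factors (0.96), were at 1.07 and 1.04 with those values. The Klf stem was split, with 5 of 9 genes above 0 and 4 below, and with 4 higher and 1 lower at 2-fold. Klf2, Klf9 and Klf11, like Cyp2j6, Cyp2j9 and Cyp4v3, were kept through the adult column alone. The integrin alpha chains (Itga) had a median of 1.36 with 3 of 5 higher, which is the ratio of the unchecked Itga4, but a median of 0.097 with 2 higher and 1 lower with the gene table's fetal values. All 7 Dock and all 9 Dennd genes, both regulators of small GTPases, lay above 0, and 5 of 10 phosphodiesterase (Pde) genes were higher. Of these 5, Pde10a, Pde1b, Pde4a and Pde9a were kept through the adult column alone, and Pde1b and Pde4b were unchecked. The Pde median was 0.67, or 0.32 with 4 higher with the gene table's fetal values. The zinc finger stem Zfp had 30 of 187 genes higher and 3 lower, with a median of 0.35, and its relative Zbtb had a median of 0.12. The function list that joins Zfp with Zbtb, Zkscan and Zscan had 38 of 226 higher and 3 lower and a median of 0.34. Among its 155 genes at 5 FPKM or more on both sides, 13 (8.39%) were higher and 0 lower, beside 4.40% higher of all such genes. The list holds low-level genes with long transcripts, at a median of 8.59 FPKM and 3890 bases.

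Some of the 2-fold differences fell in neighbouring genes. Counting stretches of 3 or more adjacent genes kept that were all 2-fold different in 1 direction gave 30 stretches of higher genes with 113 genes and 9 of lower genes with 30 genes. The stretches thus held 13.6% of the 833 higher and 5.17% of the 580 lower genes. Calls among all genes kept, 9.00% higher and 6.27% lower, are a different measure and not an expected value for these shares. How many stretches such call rates alone would give was not computed. The longest held 9 genes of the class II region on chromosome 17, from H2-DMa through Tap1, Psmb8 and Tap2 to the unchecked H2-Eb1, with ratios from 1.11 to 2.77. A run of 6 Trim genes on chromosome 7, which encode antiviral ring finger proteins, ran from Trim34a to the unchecked Trim30d, with Trim12c at 8.99 against 29.9 FPKM and Trim30b at 0.563 against 5.39 FPKM. The inflammatory caspase genes Casp1, Casp4 and Casp12 on chromosome 9 were at 3.42 against 20.8 FPKM, at 4.39 against 18.9 FPKM and at 2.18 against 13.7 FPKM. The unchecked Gbp5 was adjacent to Gbp7, Gbp3 and Gbp2 on chromosome 3, as were 6 Zfp genes to each other on chromosome 17. On the lower side, 5 stefin genes on chromosome 16 and the 3 C1q genes on chromosome 4, the complement subunits made by macrophages, stood together. C1qb was at 53.2 against 1.48 FPKM (-5.09), C1qc at 41.8 against 0.679 FPKM (-5.76) and C1qa at 38.3 against 1.09 FPKM (-5.03). Duplicated genes sit side by side and resemble each other, so shared reads are uncertain for the H2, Trim, Gbp, stefin and Zfp stretches.

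**Figure D5:**
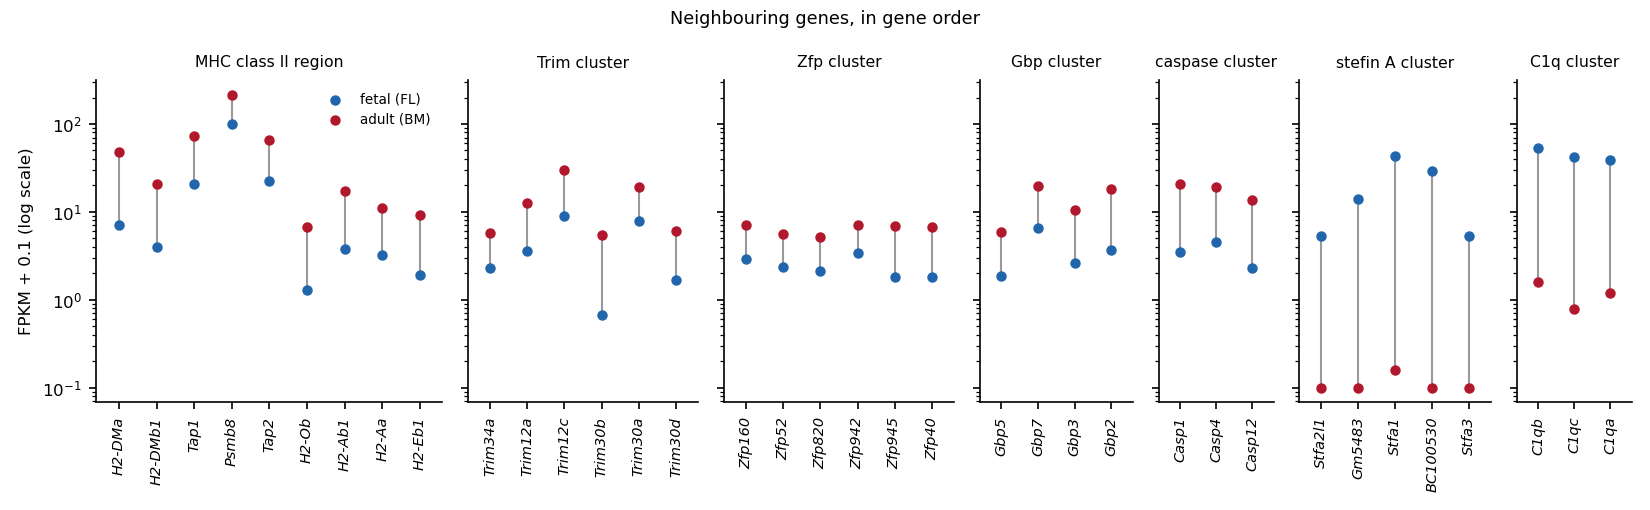
FPKM with 0.1 added (log scale) in the fetal column (blue) and the adult column (red) for 7 stretches of neighbouring genes, each in gene order. All genes of the 5 stretches on the left are higher in the adult column, and all stefin A and C1q genes on the right are lower, with 3 or more genes per stretch.

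Against these differences, 628 of the 651 genes that reached 100 FPKM on both sides stayed within 2-fold. Ldb1, a core partner of the GATA and Tal1 complex, was at 171.9 against 170.02 FPKM (-0.03), Chd4, a nucleosome remodeller, at 151 against 151 FPKM (-0.02), and Eif3e, an initiation factor subunit, at 210.5 against 210.3 FPKM (-0.01). Rps14, the most abundant ribosomal protein gene in the adult column, was at 4508 against 5197 FPKM (0.19). Several strong ratios failed the check of the fetal sum: Rbm7, an RNA-binding protein gene, was at 0.049 against 18.8 FPKM (6.98), but its fetal value in the gene table was 40.4 FPKM, and Sdf2 and Fam104a, at relative ratios of 4.53 and 5.30, had 45.3 and 25.3 FPKM there. With those values Rbm7, Sdf2 and Fam104a would be at -0.97, -1.86 and -2.10. Rgs1, H2-Q6, H2-Q7 and Hspa1a were unchecked as well but stayed more than 10-fold higher with the gene table's value, at 6.20, 8.87, 8.65 and 5.59.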

How the data were processed

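Polyadenylated RNA of sorted HSCs was sequenced in paired-end mode, per the labels' protocols, which name read lengths of 100 nt and 75 nt without assigning them and list the molecule as genomic DNA. The authors deposited FPKM per transcript and per gene, with 1 column FL and 1 column BM in each table, and the submitters' processing notes name TopHat, Cufflinks, featureCounts, Subread, edgeR and mouse build mm9 without role or version. Where such values come from Cufflinks, reads of overlapping transcripts are shared out by a model. FPKM keeps no depth, so depth is unknown and no interval is given.

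Transcripts were linked to genes by identifier through GENCODE M21 (GRCm38); 76512 of 87641 were linked, and the rest carried 10.38% of the FL and 10.94% of the BM FPKM, so sums can be too low. No coordinates of features in the files are used; neighbours and lengths are those of GENCODE M21. The FL column of the gene table (1 column) was not used. Ratios used a pseudocount of 0.1 FPKM and a median shift of 0.01 log2, and the script was tested on simulated data. Python 3.11.15, numpy 2.4.6, pandas 2.3.3 and matplotlib 3.10.9 were used.

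The genes kept, the 46 lists and the motifs were chosen with earlier results of these data known. Genes were named by rule: the 40 highest and 40 lowest checked ratios, the 20 largest gains and losses in FPKM, up to 5 per list and direction plus its 2 highest, the 10 highest and lowest families, the 20 highest and lowest lncRNA genes, those at the 5 FPKM limit, those with printed promoters and the 20 least different at 100 FPKM or more. Angpt1, Bst2, Casp1, Casp12, Casp4, Cited4, Cpox, Ddx3y, Fam104a, Gbp5, Gbp7, H2-Aa, H2-T23, Ifnar1, Isg15, Lin28b, Muc13, Mylk3, Sdf2, Slc39a8, Slfn5, Slfn8, Sox6, Tal1, Tap1, Tap2, Tek, Trim12c, Trim30b, Trim30d, Trim34a, Tspo2 and Xist were chosen after their values were seen, as was the count of neighbouring stretches.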

Additional observations from a re-analysis of the deposited data

How the results depend on the processing

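The numbers of higher and lower genes depended mainly on the level limit. With 1 FPKM in either column, 1524 genes were higher and 1016 lower at 2-fold, 463 and 407 at 4-fold and 144 and 199 at 10-fold; with 20 FPKM, 260 and 318, 71 and 71, and 26 and 39. Of the 2-fold differences, 59.0% were higher at 5 FPKM and 45.0% at 20 FPKM. A pseudocount of 1 FPKM left 28 genes 10-fold higher and 41 lower, and 25 zinc finger genes higher. With the fetal value taken from the gene table, 91 genes were 10-fold higher, 729 of 833 higher and 501 of 580 lower genes stayed so at 2-fold, and 16 took the opposite call. Under it the medians of 2 lists turned, to 0.0049 for cytosolic ribosomal proteins and 0.41 for histones, as did 9130221H12Rik (-0.069), Anxa1 (-0.95), Hoxa10 (-0.37), Itga4 (-1.30), Jak3 (-1.73), Ptprc (-1.03), Rbm7 (-0.97) and Stat2 (-0.38); the cause was not tested. Ribosome biogenesis genes 2-fold lower numbered 5, 3 among checked genes and 8 with the gene table. Scaling to a common upper quartile moved 0 of 46 list medians beyond their limit. No paired analysis was possible because the columns carry no replicates, and for the same reason no replicate could be left out.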
